A study of Mus musculus with 8 samples.

Results

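The 10 genes described here encode the enzymes that make serine and pass its carbon to folate, together with the mitochondrial phosphoenolpyruvate carboxykinase Pck2. They are Phgdh, Psat1, Psph, Shmt1, Shmt2, Mthfd1, Mthfd1l, Mthfd2, Aldh1l2 and Pck2, chosen by name with earlier results of these data known. All 10 were measured among the 18820 genes compared. Where a gene had several probe sets, the brightest on average was read. RNA came from white adipose tissue of 8 male mice, 1 array per mouse. In the 4 Sel1l-/- mice, floxed Sel1l was removed by Cre driven from the adiponectin promoter, an adipocyte promoter, so that other cells of the tissue keep the gene. The 4 wildtype (WT) mice were the controls, and whether they carried the floxed allele or Cre is not stated in the sources used here. Both groups were on a C57BL/6 background labelled as a mixture of C57BL/6N and C57BL/6J, and both were fed for 5 weeks on the high fat diet D12492 of Research Diets. Age and fat depot are not stated in the sources used here.

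Cells make serine from the glycolytic intermediate 3-phosphoglycerate, and serine hydroxymethyltransferases then move a carbon unit from serine to tetrahydrofolate. The folate enzymes exist as a mitochondrial and a cytosolic set, and formate made in mitochondria supplies the cytosol with carbon units for purine, thymidylate and methyl group synthesis. Several of these genes, and Pck2, are known targets of ATF4, a transcription factor made when translation is slowed by ER stress or amino acid shortage. The Sel1l protein is a partner of the ubiquitin ligase Hrd1 in clearing misfolded proteins from the ER.

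The upstream sequences of Pck2 and Mthfd2 are shown because these genes, after Aldh1l2, had the largest differences of the set. RefSeq windows of build GRCm38.p6 were found for 9 of the 10 genes, all but Aldh1l2, and the 250 bases before the annotated start are printed 5′ to 3′ on the strand of the gene. The Pck2 window is chr14:55540016-55540265 on the plus strand, and the Mthfd2 window is chr6:83317605-83317854 on the minus strand. Capitals mark matches, on either strand, to CCAAT (the CCAAT box) and to TGATGNAA (the core of the C/EBP-ATF response element, which ATF4 binds).
Pck2: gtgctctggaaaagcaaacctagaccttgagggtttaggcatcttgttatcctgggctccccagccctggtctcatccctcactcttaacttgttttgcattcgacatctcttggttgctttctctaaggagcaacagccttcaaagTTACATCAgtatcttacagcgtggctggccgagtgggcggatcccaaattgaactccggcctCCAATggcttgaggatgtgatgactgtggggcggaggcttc
Mthfd2: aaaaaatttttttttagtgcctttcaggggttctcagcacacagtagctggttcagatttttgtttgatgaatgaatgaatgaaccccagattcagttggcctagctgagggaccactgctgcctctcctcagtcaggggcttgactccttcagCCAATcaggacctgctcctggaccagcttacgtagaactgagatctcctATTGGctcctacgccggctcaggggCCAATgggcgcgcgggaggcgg

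The Pck2 window held 1 match to TGATGNAA, read on the opposite strand as TTACATCA, at 103 to 96 bases before the start. No other window of the 9 genes held these letters, which 3.45% of all 32851 windows in the table do, coding and noncoding genes together. CCAAT was present in windows of 7 of the 9 genes. The 9 genes had 10 windows, of which the second of Psat1 held no CCAAT, and 33.8% of all windows held it. The 2 motifs did not overlap in the Pck2 window. A match describes the letters only, and a missing match says nothing of a factor's binding outside the window.

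Sel1l, the deleted gene, read 9.78 ± 0.21 in Sel1l-/- and 10.57 ± 0.07 in WT mice on the log2 scale (SD, n = 4 each), without overlap, and passed the test (log2 fold change -0.79, limma adjusted p = 0.0109). The labels give each mouse a code with a letter and a number, and the call was lost with the letter (adjusted p = 0.151) or the number (0.0813) as a block and without variance moderation (0.0540). Letter E was held only by WT mice (1 to 3) and letter G only by Sel1l-/- mice (3 and 4). A difference between these letters cannot be told apart from genotype. With the letter as a block, every comparison rests on WT 4 against Sel1l-/- 1 and 2. The places of its probes relative to the deleted exons are not stated in the sources used here. Means of 7 adipocyte markers were high on all arrays, at 12.41 to 12.62 in Sel1l-/- and 12.65 to 12.76 in WT tissue, against array medians of 6.05 to 6.14, while 5 skeletal muscle markers averaged 5.11 to 5.38 and 5.20 to 5.35. Nnt, which is disrupted in C57BL/6J, read 8.56 to 9.30 in Sel1l-/- and 9.16 to 9.63 in WT mice, and its part in the results was not tested. Over all genes, 1.72% passed an adjusted p of 0.05 (1.04% higher and 0.685% lower in Sel1l-/-, 324 genes together). That count was 725 with the replicate number as a block, 20 with the letter and 11 with the number of the codes as a block, 124 without moderation and 100 to 336 when 1 array was left out. Array medians were 6.10 to 6.14 in Sel1l-/- and 6.05 to 6.08 in WT mice, without overlap. Centring the arrays on them turned the split to 119 higher and 154 lower. Arrays of the groups did not overlap for 10.3% of all genes, and 48.8% of all genes had a positive log2 fold change.

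Of the 10 enzymes, 2 rose in Sel1l-/- fat (adjusted p under 0.05), where 1.04% of all genes rose, and none fell, where 0.685% of all genes fell. As the 10 were chosen with earlier results of these data known, these shares describe the set and do not measure enrichment. At an unadjusted limma p under 0.05 lay 5 of the 10, where 15% of all genes lay under it in either direction (2823 of 18820). Among these 5, Phgdh and Shmt1 were lower, at an unadjusted limma p of 0.0181 and 0.00692. The 2 that rose past the threshold were Aldh1l2, at 2.60-fold, and Pck2, at 2.39-fold, and both act in mitochondria. Mthfd2, also a mitochondrial enzyme, read 2.26-fold higher with an adjusted p of 0.0595 by limma and is not counted. Arrays of the groups did not overlap for 5 of the 10 genes, against 10.3% of all genes: these 3 were higher, where 5.22% of all genes were, and Phgdh and Shmt1 lower in every Sel1l-/- mouse. The median log2 fold change of the 10 was 0.14, against 0.00 over all genes, and single values ran from -0.45 to 1.38. The tissue holds several cell types, so that fewer cells of a type and less RNA per cell cannot be told apart in any of these values.

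**Figure D1:**
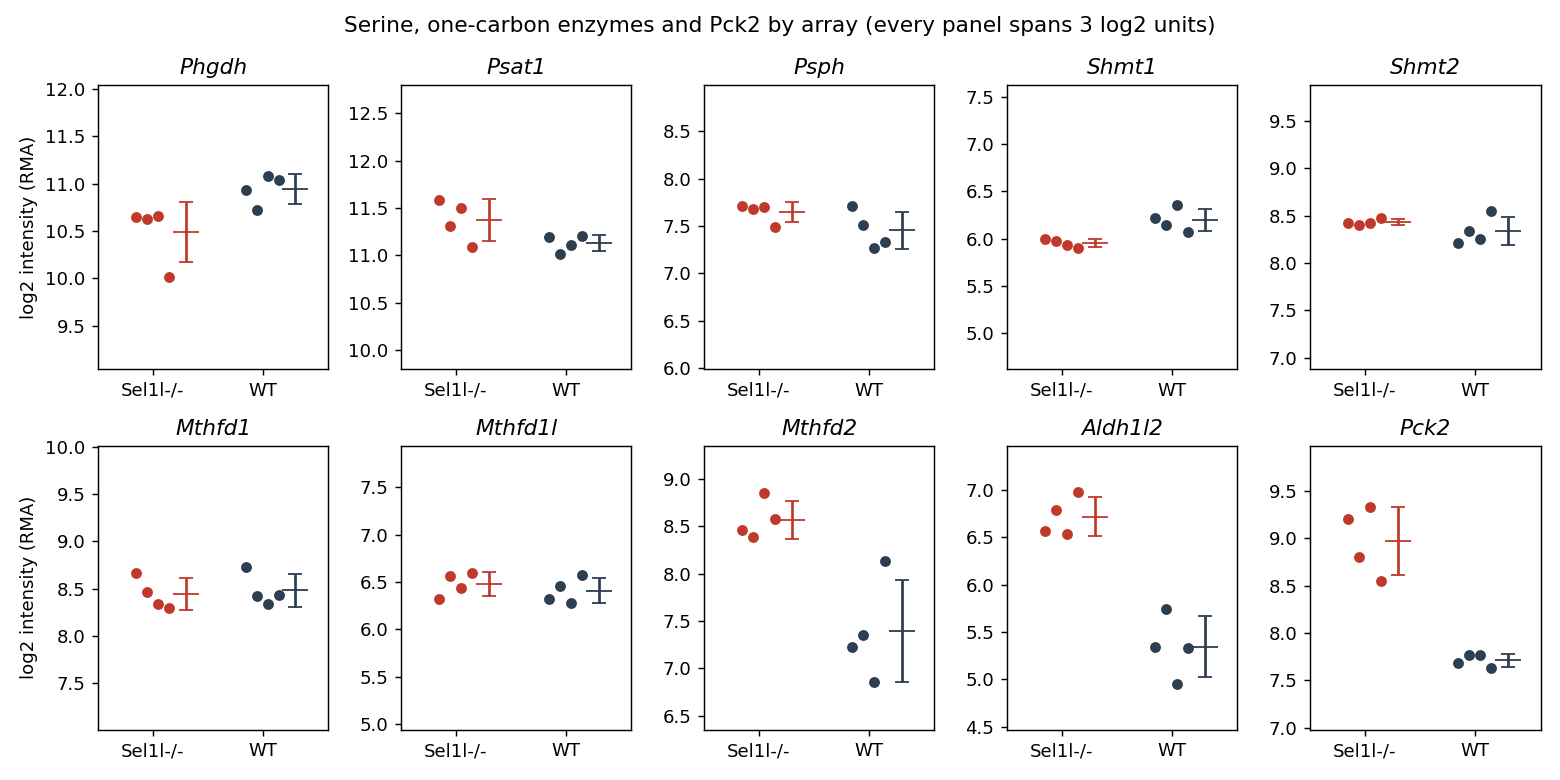
Log2 intensity of each of the 10 genes (vertical axis, 3 log2 units in every panel) in 4 Sel1l-/- arrays (red, left) and 4 WT arrays (dark, right), with mean and SD beside the points. Mthfd2, Aldh1l2 and Pck2 stand higher in all Sel1l-/- arrays than in any WT array, while the other panels show smaller differences.

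Serine synthesis was examined first. Phgdh encodes the dehydrogenase that takes 3-phosphoglycerate into the pathway. Its log2 intensity was 10.65, 10.63, 10.66 and 10.01 in Sel1l-/- mice 1 to 4, against 10.93, 10.72, 11.08 and 11.04 in WT mice 1 to 4. All Sel1l-/- arrays lay below all WT arrays, and Sel1l-/- 4 lay far below the other 3. The log2 fold change was -0.45 (95% interval -0.81 to -0.10, limma adjusted p = 0.217), which did not pass the test over all genes. Without Sel1l-/- 4 it was -0.29, and this array moves the value by over 1.5 times. The gene has 3 probe sets with the same accessions, and the dimmer 2 gave log2 fold changes of -0.50 and -0.25. RefSeq also lists a pseudogene, Phgdh-ps1, and which locus each probe set reads is not stated in the sources used here.

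The other enzymes of serine synthesis leaned the opposite way without passing the test. Psat1, the aminotransferase of the second step, read 11.58, 11.30, 11.50 and 11.09 in Sel1l-/- mice, against 11.19, 11.01, 11.11 and 11.21 in WT mice. Its groups overlapped through Sel1l-/- 4, with a log2 fold change of 0.24 (95% interval -0.01 to 0.49, limma adjusted p = 0.355). Psph, the phosphatase that releases serine, read 7.71, 7.68, 7.70 and 7.49 in Sel1l-/- mice, against 7.71, 7.50, 7.27 and 7.33 in WT mice. WT 1 read as high as Sel1l-/- 1, and the log2 fold change of Psph was 0.19 (95% interval -0.05 to 0.43, adjusted p = 0.451 by limma). Sel1l-/- 4 was the lowest of its group for all 3 genes. That array also had the lowest adipocyte marker mean of the 8 (12.41) and the highest macrophage marker mean (10.98), and the part of either in these values was not tested.

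The serine hydroxymethyltransferases, which split serine into glycine and a folate-bound carbon, differed little. The mitochondrial Shmt2 read 8.43, 8.40, 8.42 and 8.47 in Sel1l-/- mice, against 8.21, 8.33, 8.25 and 8.55 in WT mice. WT 4 was the highest of all 8 arrays, and the log2 fold change of Shmt2 was 0.09 (95% interval -0.09 to 0.27, limma adjusted p = 0.643), and 0.165 without WT 4 or 0.053 without WT 1. A second, dimmer probe set of Shmt2 gave a log2 fold change of 0.00. The cytosolic Shmt1 read 5.99, 5.97, 5.93 and 5.90 in Sel1l-/- mice, against 6.21, 6.15, 6.35 and 6.07 in WT mice. The Shmt1 groups did not overlap. The difference did not pass after adjustment over all genes (log2 fold change -0.25, 95% interval -0.41 to -0.09, limma adjusted p = 0.138).

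Among the folate enzymes of the set, Aldh1l2 alone passed the test. It encodes the mitochondrial formyltetrahydrofolate dehydrogenase, which oxidises the folate-bound formyl group to CO2 and makes NADPH. Its log2 intensity was 6.57, 6.79, 6.53 and 6.98 in Sel1l-/- mice, against 5.34, 5.74, 4.95 and 5.33 in WT mice. Every Sel1l-/- array was above every WT array, and the WT mean of 5.34 lay below the median of each array but above its lower quartile. The rise was 2.60-fold (log2 fold change 1.38, standard error 0.17, 95% interval 0.997 to 1.76, limma adjusted p = 0.00861). The call was kept whichever of the 8 arrays was left out, with adjusted p between 0.0146 and 0.0428. Blocking on the mouse codes ended the call (1.35 and adjusted p = 0.234 for the letter, 1.31 and adjusted p = 0.0600 for the number). It was also lost without moderation (adjusted p = 0.0521).

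Mthfd2 encodes the mitochondrial dehydrogenase and cyclohydrolase that turns methylene- into formyltetrahydrofolate, and its transcript is known to be high in dividing cells. It read 8.46, 8.39, 8.85 and 8.57 in Sel1l-/- mice, against 7.22, 7.36, 6.85 and 8.14 in WT mice. The groups did not overlap, but WT 4 stood just below the lowest Sel1l-/- mouse and well above the other WT mice. The log2 fold change was 1.18 (standard error 0.25, 95% interval 0.62 to 1.74), with an adjusted p of 0.0595 by limma. Without WT 4 it was 1.42 and passed (adjusted p = 0.0111), and it also passed with array weights (adjusted p = 0.0206) and after the dimmer 50% of genes were left out (adjusted p = 0.0387). With the code letter as a block, where the comparison rests on WT 4 against Sel1l-/- 1 and 2, the difference was 0.29 (adjusted p = 0.720).

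Markers of dividing cells moved beside Mthfd2. The mean log2 intensity of 6 such markers was 7.04, 7.42, 7.60 and 8.04 in Sel1l-/- mice, against 6.62, 7.15, 6.37 and 7.54 in WT mice. All 6 had positive fold changes and none passed the limma test, with 1 at an unadjusted p under 0.05. WT 4 had both the highest marker mean and the highest Mthfd2 of the WT mice, and WT 3 the lowest of both. The Sel1l-/- mice did not keep this order: the marker mean was highest in mouse 4 and Mthfd2 in mouse 3, and Sel1l-/- 1 had a lower marker mean than WT 4 but a higher Mthfd2. Macrophage markers were positive in 8 of 8 cases, with none past the threshold and 0 at an unadjusted p under 0.05, at means of 10.14 to 10.98 in Sel1l-/- and 9.77 to 10.52 in WT tissue. The part of dividing cells or macrophages in the Mthfd2 values was not tested.

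The remaining folate enzymes overlapped between genotypes. Mthfd1l, the mitochondrial synthetase that releases formate, read 6.32 to 6.60 in Sel1l-/- and 6.28 to 6.57 in WT mice (log2 fold change 0.07, 95% interval -0.13 to 0.27, limma adjusted p = 0.780). Leaving out 1 array moved that value between 0.027 (without WT 3) and 0.123 (without WT 4). Mthfd1, the cytosolic enzyme that carries the dehydrogenase, cyclohydrolase and synthetase activities on 1 protein, read 8.29 to 8.67 in Sel1l-/- and 8.34 to 8.73 in WT mice. Its log2 fold change was -0.04 (95% interval -0.29 to 0.21, limma adjusted p = 0.912), and the sign turned when WT 1 or Sel1l-/- 4 was left out. Their intervals leave out a change as large as that of Aldh1l2 or Pck2.

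Pck2 encodes the mitochondrial enzyme that makes phosphoenolpyruvate from oxaloacetate, upstream of 3-phosphoglycerate when glycolysis runs in reverse. Its log2 intensity was 9.21, 8.80, 9.33 and 8.55 in Sel1l-/- mice, against 7.68, 7.77, 7.77 and 7.63 in WT mice. The WT arrays lay close together, and the lowest Sel1l-/- array was well above them. The rise was 2.39-fold (log2 fold change 1.26, standard error 0.16, 95% interval 0.90 to 1.62, limma adjusted p = 0.0102). It was kept whichever array was left out, with adjusted p between 0.00357 and 0.0427. It was lost with the code letter (1.37, adjusted p = 0.212) or the code number (1.29, adjusted p = 0.0699) as a block and without moderation (adjusted p = 0.0558). Within the Sel1l-/- mice, Pck2 was highest in mouse 3 and lowest in mouse 4, while Aldh1l2 was lowest in mouse 3 and highest in mouse 4.

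The codes of the mice, whose meaning is not stated in the sources used here, allow a comparison within subsets. Letter F holds WT 4 with Sel1l-/- 1 and 2, and there the log2 difference was 1.35 for Aldh1l2 and 1.37 for Pck2, about as large as over all mice. Within the code numbers 5, 7 and 9 the difference was 1.20, 1.03 and 1.84 for Aldh1l2. It was 1.67, 1.11 and 1.03 for Pck2 and 1.17, 1.16 and 1.54 for Mthfd2. Number 5 holds WT 1, WT 4 and Sel1l-/- 3, number 7 holds WT 2, Sel1l-/- 1 and Sel1l-/- 4, and number 9 only WT 3 and Sel1l-/- 2. Every Sel1l-/- array of these 3 genes lay above every WT array. The direction therefore had to be the same in each subset and adds no support, and only the sizes could vary. The size of Mthfd2 in letter F was 0.29.

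**Figure D2:**
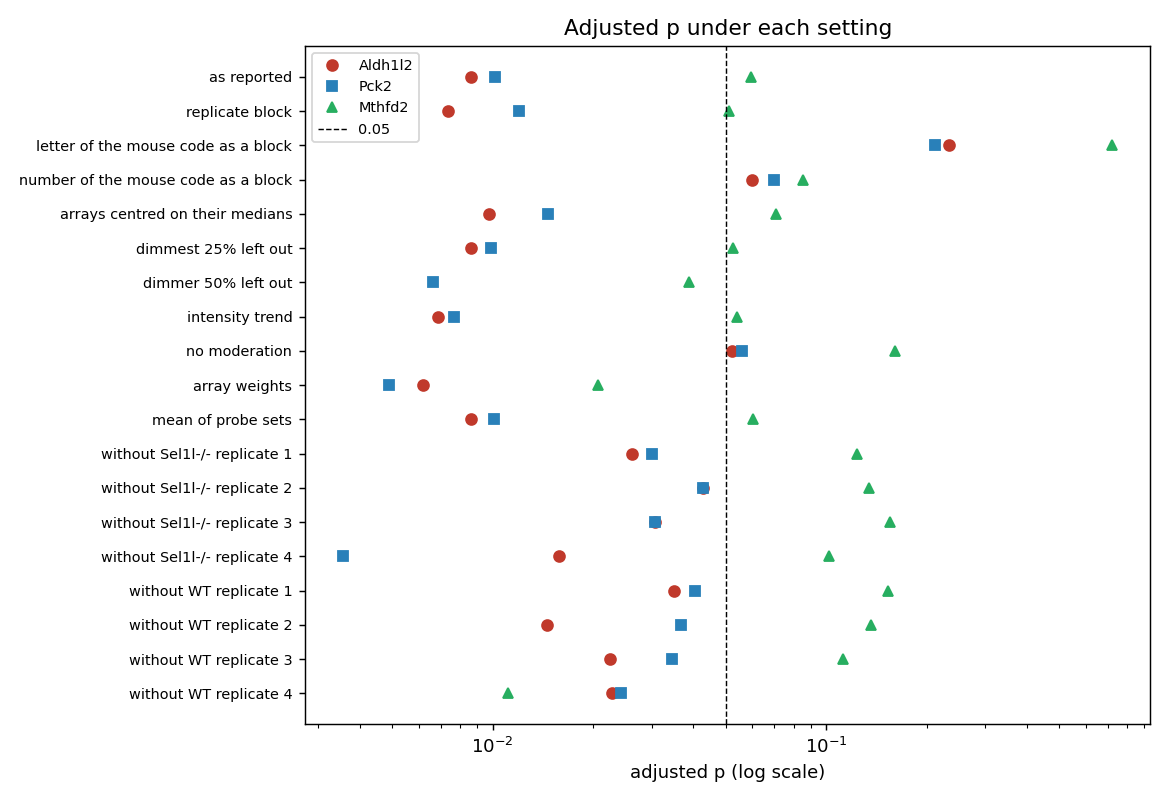
Adjusted p (horizontal, log scale) of Aldh1l2, Pck2 and Mthfd2 under each setting (rows), with the threshold of 0.05 as a dashed line. Aldh1l2 and Pck2 lie left of the line except with either mouse code as a block or without moderation, and Mthfd2 crosses it in 3 settings, while Aldh1l2 has no point where the dimmer 50% of genes, which include it, were left out.

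Several of these enzymes have a counterpart in the other compartment or a close relative, and 6 such pairs were compared by the log2 ratio of both genes on each array. An exact two-sided permutation test over the 8 arrays cannot go below 0.0286, and its p-values were adjusted over the 6 pairs. The ratio of Aldh1l2 to its cytosolic counterpart Aldh1l1 differed by 1.65 between genotypes (standard error 0.26, exact p = 0.0286, adjusted p = 0.0571). Aldh1l1 itself had a log2 fold change of -0.27 (95% interval -0.58 to 0.03, limma adjusted p = 0.397). The ratio of Pck2 to Pck1, the cytosolic enzyme that adipocytes use to make glycerol phosphate, differed by 1.42 (standard error 0.36, exact p = 0.0286, adjusted p = 0.0571). Within letter F that difference was 0.42, where WT 4 had a low Pck1.

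Pck1 varied widely in both groups. It read 12.37, 11.91, 12.27 and 11.04 in Sel1l-/- mice, against 12.37, 11.85, 12.82 and 11.19 in WT mice. Mouse 4 was the lowest of each genotype, and the log2 fold change of -0.16 had a wide 95% interval of -1.04 to 0.73 (limma adjusted p = 0.891). The ratio of Mthfd2 to Mthfd1 differed by 1.21 (standard error 0.33, exact p = 0.0286, adjusted p = 0.0571), and that of Mthfd2 to its mitochondrial relative Mthfd2l by 1.11 (standard error 0.35, exact p = 0.0857, adjusted p = 0.103). Shmt2 to Shmt1 differed by 0.34 (standard error 0.13, exact p = 0.0857, adjusted p = 0.103), and Mthfd1l to Mthfd1 by 0.11 (standard error 0.18, exact p = 0.514). None of the 6 pairs passed 0.05 after adjustment, and for 3 of them the unadjusted p was the smallest the design allows. With 3 of 6 pairs at that floor of the exact test, the adjusted p cannot go below 0.0571. The failure of these 3 pairs to pass follows from that floor together with the larger p of the other pairs. It is no evidence of equal change.

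**Figure D3:**
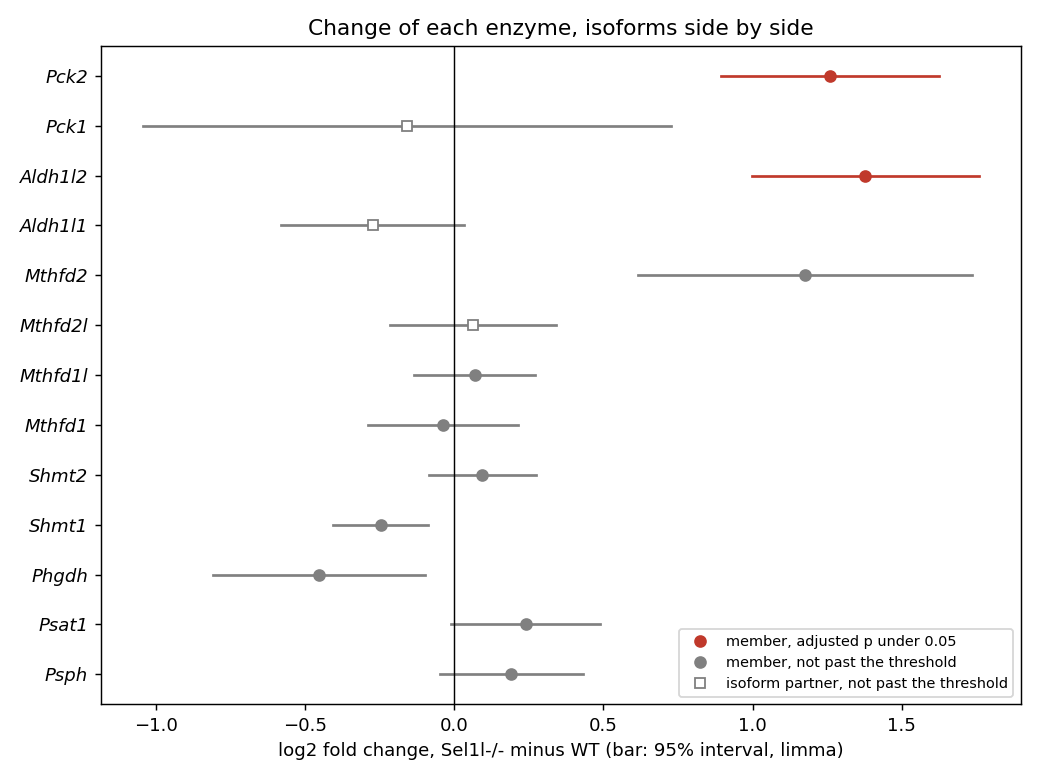
Log2 fold change (Sel1l-/- minus WT, horizontal) with its 95% interval for the 10 genes (circles) and 3 isoform partners (squares), with related enzymes next to each other. Aldh1l2 and Pck2 (red) passed the test, Mthfd2 lies at 1.18, and their partners Aldh1l1, Pck1 and Mthfd2l have intervals that include 0.

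Genes around the pathway were read from lists drawn up by function. Of 16 measured other folate enzymes and transporters none passed in either direction by limma (median log2 fold change 0.00, range -0.28 to 0.34). None of 4 glycine cleavage genes passed (range -0.13 to 0.26), nor did any of 13 genes of serine use and transport (range -0.31 to 0.58) or of 11 neighbours of phosphoenolpyruvate and 3-phosphoglycerate (range -0.16 to 0.41). At an unadjusted limma p under 0.05 there were 2, 1, 5 and 1 genes in these 4 lists, against 15% of all genes. The counts of 2 in 16 and 1 in 11 are no higher than that share, while 1 in 4 and 5 in 13 are above it. In serine use and transport, Slc1a4 (log2 fold change 0.58) and Slc6a9 (0.24) were higher. Slc1a5 (-0.31), Srr (-0.24) and Ptdss2 (-0.23) were lower. Arrays of the groups did not overlap for 4 of these 13 genes, against 10.3% of all genes. Of 11 genes of the methionine cycle and transsulfuration 1 rose and none fell. It was Sardh, the mitochondrial sarcosine dehydrogenase that also hands a carbon unit to folate. Sardh read 9.43, 9.23, 9.42 and 9.23 in Sel1l-/- mice, against 8.82, 8.86, 8.68 and 9.06 in WT mice, or 1.39-fold higher (limma adjusted p = 0.0463). Its call did not last: it was lost with the replicate number as a block (adjusted p = 0.0641), with arrays centred on their medians (0.0818) and on leaving out any of 7 single arrays.

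In the list of ATF4 and its textbook targets 3 of 10 measured genes rose past the threshold and none fell past it. Over all genes 1.04% rose, and the median log2 fold change of the list was 0.49. This list too was chosen with earlier results of these data known. Eif4ebp1 was lower in every Sel1l-/- array than in any WT array (log2 fold change -0.29, limma adjusted p = 0.330). Vldlr was at -0.02, and Asns, Sesn2, Atf3, Ddit4 and Slc7a11 overlapped between genotypes at 0.29 to 0.51. Atf4 read 8.94, 8.77, 8.91 and 8.53 in Sel1l-/- mice, against 8.28, 7.96, 7.92 and 8.10 in WT mice. The transcript was 1.65-fold higher (limma adjusted p = 0.0231), and the call was lost on leaving out any of 5 single arrays (at most adjusted p = 0.0818, without Sel1l-/- 3), with the code letter (0.310) or number (0.0700) as a block and without moderation (0.0797). Trib3, a pseudokinase, read 10.12, 9.28, 9.58 and 8.58 in Sel1l-/- mice, against 6.38, 6.35, 6.50 and 6.32 in WT mice (limma adjusted p = 0.00334, but 0.0821 and 0.0544 with the code letter or number as a block). Like Pck2 and Atf4, Trib3 was lowest among the Sel1l-/- mice in mouse 4, and the spread of the WT mice was small. Chac1, an enzyme that degrades glutathione, was 1.88-fold higher (limma adjusted p = 0.0404). Its call was lost with arrays centred (adjusted p = 0.0511), with the code letter (0.226) or number (0.180) as a block, without moderation (0.128) and on leaving out any of 6 single arrays. Ddit3, which encodes CHOP, shares its probe set with Mars1 and was not analysed here.

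**Figure D4:**
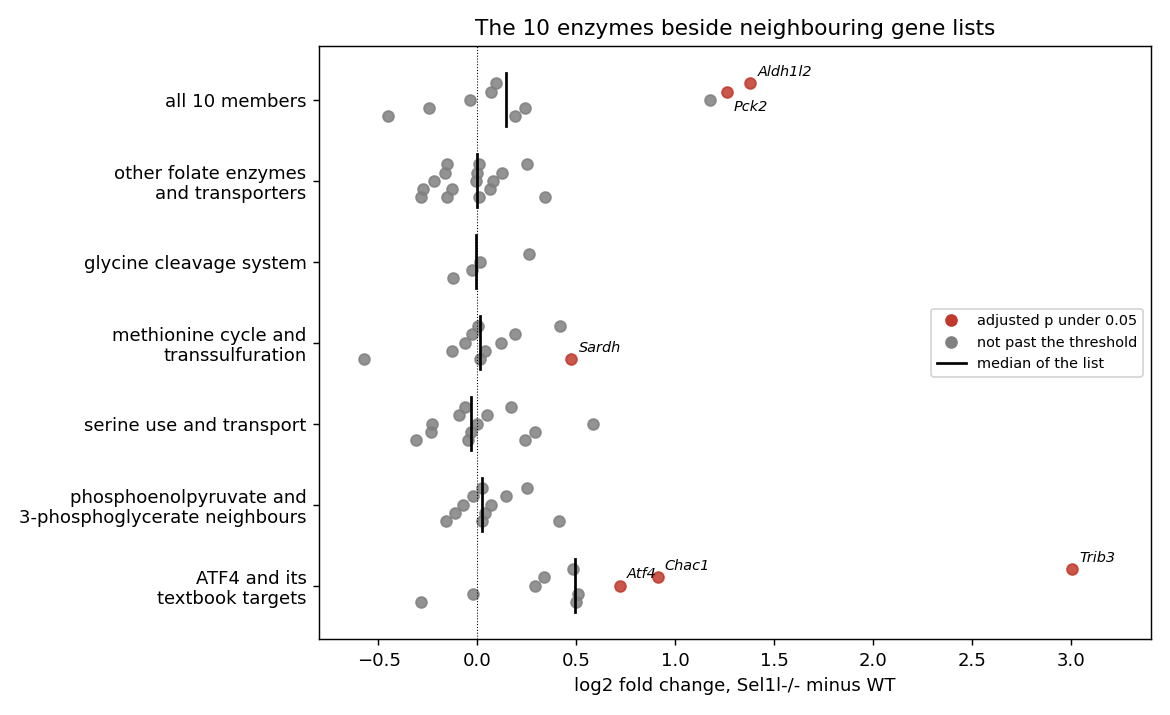
Log2 fold change (Sel1l-/- minus WT, horizontal) of each measured gene in the 10 members and in 6 neighbouring lists (rows), with the median of a list as a black bar and genes past an adjusted p of 0.05 in red and named. Red points lie among the members, in the methionine list (Sardh) and in the ATF4 list, and the other 4 lists stay between -0.31 and 0.58.

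Other cell types of the tissue were followed through markers. Each of the 5 endothelial markers had a negative fold change and an unadjusted limma p under 0.05, where 15% of all genes lay under it. Their means were 9.94 to 10.31 in Sel1l-/- and 10.44 to 10.60 in WT tissue, without overlap. Arrays of the groups did not overlap for 3 of the 5, against 10.3% of all genes, and 1 marker passed the test. It was Pecam1, an adhesion protein of endothelial cells (log2 fold change -0.39, limma adjusted p = 0.0290, lost whichever array was left out). Each of the 5 mesothelial markers also had a negative fold change, with overlapping means of 9.10 to 9.77 in Sel1l-/- and 9.41 to 10.33 in WT tissue. Adipocyte markers had 1 positive fold change among 7, and their means, given with Sel1l above, did not overlap. Of the single markers only Adipoq, the adiponectin gene, did not overlap. It read 11.80 to 12.33 in Sel1l-/- and 12.53 to 12.89 in WT mice (log2 fold change -0.56, limma adjusted p = 0.0753). The other adipocyte markers overlapped, with log2 fold changes of -0.18 to 0.02. None of 5 fibroblast, 5 mesothelial, 6 lymphocyte, 5 skeletal muscle or 7 adipocyte markers passed, with 1 mesothelial and 1 adipocyte marker at an unadjusted limma p under 0.05. The part of a changed cell make-up in the rise of Aldh1l2 and Pck2 was not tested.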

How the data were processed

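Total RNA of 8 samples was hybridised to 1-colour arrays. The authors deposited log2 values, a scale read from their range of 1.72 to 13.9, made with RMA per the submitters' processing notes, which give no version or filter in the sources used here. RMA equalises the arrays' distributions, so a shift of most transcripts would not show, and it compresses differences of dim probe sets. Of 35556 probe sets, 21218 had 1 gene symbol in the platform annotation, 1881 had several and 12457 were unnamed. The number of arrays limits the precision.

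A two-sided test of each gene was run in limma 3.58.1 (R 4.3.3; lmFit, eBayes, no covariate) and its p-values were adjusted over all genes by the Benjamini-Hochberg method, a procedure tested on simulated data. Figures used Python 3.11.15, pandas 2.3.3 and matplotlib 3.10.9. Sequences are from RefSeq, GRCm38.p6. The members and lists were chosen with earlier results of these data known. Named genes were the members, Sel1l, Nnt, Atf4, Ddit3, the isoform partners and up to 3 genes past the threshold per list; motif searches were chosen later. Deviations of same-numbered mice had correlations of 0.518, 0.107, 0.363 and 0.524 (replicates 1 to 4), so the replicate number was tried as a block. This pairing comes from the data, as no label states it. Mice of different numbers ran from -0.489 to 0.328, and replicate 2 lay within that range. Separate mice are taken from the mouse codes in the labels.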

Additional observations from a re-analysis of the deposited data

Results flagged for a closer look

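In 4 of the 40 groups of 4 arrays examined (20 named genes in 2 genotypes), 1 array lay far from the other 3, where chance gives about 1 in 20 groups. In Sel1l-/- 4, Phgdh read 10.01 against 10.63 to 10.66 in the other Sel1l-/- mice. In the same array Psph read 7.49 against 7.68 to 7.71, and Mthfd2l read 7.56 against 7.82 to 7.86. In WT 1, Mthfd2l read 8.05 against 7.54 to 7.63 in the other WT mice.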

How the results depend on the processing

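Of the 10 enzymes, 2 were higher and 0 lower under the replicate block, with arrays centred, with an intensity trend and with probe sets averaged; the higher count was 3 with array weights, 2 to 3 when 1 array was left out and 0 with the letter or the number of the mouse codes as a block and without moderation. It was also 2 without the dimmer 50% of genes, where Mthfd2 took the place of Aldh1l2. Over all genes 324 passed, 725 with the replicate block, 20 with the letter and 11 with the number as a block, 124 without moderation, 566 with array weights and 100 to 336 when 1 array was left out. With arrays centred, 119 were higher and 154 lower, against 195 and 129. Sel1l lost its call with the letter (-0.98), with the number (-0.80) and without moderation (-0.79). With the letter as a block the sign turned for Shmt2 (-0.14), Mthfd1 (0.14), Mthfd1l (-0.13) and Pck1 (0.95). On leaving out 1 array, Mthfd1 ran from -0.113 to 0.045 (above 0 without WT 1 and, at 0.013, without Sel1l-/- 4), and Pck1 from -0.448 to 0.126 (0.126 without Sel1l-/- 4, 0.095 without WT 3). Within letter F the pair differences were -0.045 for Shmt2 to Shmt1, 0.42 for Pck2 to Pck1, 0.15 for Mthfd2 to Mthfd1, -0.016 for Mthfd2 to Mthfd2l, -0.27 for Mthfd1l to Mthfd1 and 2.09 for Aldh1l2 to Aldh1l1. Within number 7 they were -0.058 for Mthfd1l to Mthfd1 and 1.23 for Aldh1l2 to Aldh1l1, and within number 9, 1.94 for Pck2 to Pck1 and 2.19 for Aldh1l2 to Aldh1l1. Mthfd1l to Mthfd1 ran from -0.0054 (without WT 1) to 0.235 on leaving out 1 array. The causes were not tested.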
